A study of Homo sapiens with 6 samples.

Results

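The genes described here are RNF5 and the other genes named RNF followed only by digits in the deposited expression table of LP-1, a cell line established from human multiple myeloma. They were chosen by gene name alone, and 5 of the 1877 listed genes met that rule, namely RNF5, RNF24, RNF39, RNF112 and RNF149. Transcripts were sequenced in 3 libraries of LP-1 cells in which a short hairpin RNA had depleted RNF5 (treatment label RNF5 KD) and in 3 libraries of LP-1 control cells (label Ctrl), called non-target controls in the study's design. All 6 libraries came from cells kept in RPMI-1640 with 15% serum. The sources used here do not give the number of hairpins, the part of the RNF5 transcript they matched or whether replicates were separate cultures, so the p-values measure only the spread between these libraries.

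RNF stands for ring finger, a zinc-binding fold by which many ubiquitin ligases hold a ubiquitin-conjugating enzyme. Ubiquitin passes from an activating enzyme (E1) to a conjugating enzyme (E2) and then, guided by a ligase (E3), to a substrate, which is often sent to the proteasome. RNF5 is anchored in the membrane of the endoplasmic reticulum, where it takes part in the removal of misfolded membrane proteins. In plasma cells and myeloma cells, which secrete large amounts of antibody, this quality control carries a heavy load. The study's title joins RNF5 with DNAJA1, a co-chaperone of HSP70, and with the response to selinexor, an inhibitor of nuclear export.

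The table is a selection that the authors made for change between these same 6 libraries, so a gene without a row has no value here and cannot be called unchanged. The 5 rows were 6.41% of the 78 genes with such names in GENCODE release 29, and 1268 of 19951 protein-coding genes of that release (6.36%) had a row. The share of numbered RNF genes in the table was thus close to that of protein-coding genes in general. In the authors' deposited table all 5, the depleted gene RNF5 among them, were lower in the knockdown, beside 50.8% of all listed genes. Those markers of cell type that had rows moved with the knockdown. Of a fixed list of 15 plasma cell markers, only SDC1 (12.1 ± 2.66 in the control, SD, n = 3), ITGB7 and CD28 had rows. The other markers of that list have no value here. All 3 with rows rose in the knockdown, 2.94-fold, 4.87-fold and 3.20-fold by the ratio of means (limma adjusted p = 3.94e-05, 2.50e-06 and 3.05e-05). Among all genes tested, 718 of 1290 rose at a limma adjusted p under 0.05. None of 22 markers of T and NK cells, myeloid cells, erythroid cells and platelets was listed, beside 6.36% of protein-coding genes. A marker without a row has no value here, so this absence says nothing about the cell type. Of 6 fibroblast and 6 epithelial markers, COL1A1 and CLDN4 alone were listed (16.7% of each list). In the control COL1A1 was at 0.593 ± 0.125 and CLDN4 at 2.70 ± 0.735. After knockdown COL1A1 was at 0.217 ± 0.197, too low to test, and CLDN4 fell to 50.4% of its control (limma adjusted p = 0.00675); the part of these markers in the results on RNF genes was not tested.

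The sequence upstream of RNF5 is shown because RNF5 is the depleted gene, and that of RNF149 because it had the smallest adjusted p of the other members. Each is the stretch before the annotated gene start, 5′ to 3′ on the strand of the gene, from RefSeq on build GRCh38.p14, which is not the build hg19 named in the submitters' processing notes. Of the 5 genes, 4 had an entry in the RefSeq promoter table, RNF112 being the other. Capitals mark matches to a CCAAT box, a GC box (GGGCGG) or the core of a nuclear respiratory factor 1 (NRF1) site (TGCGCA) on either strand.
RNF5, chr6:32178155-32178353, plus strand: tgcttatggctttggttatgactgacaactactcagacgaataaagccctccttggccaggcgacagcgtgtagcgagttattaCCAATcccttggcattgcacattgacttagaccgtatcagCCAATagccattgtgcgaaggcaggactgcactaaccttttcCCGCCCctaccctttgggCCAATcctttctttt
RNF149, chr2:101308702-101308951, minus strand: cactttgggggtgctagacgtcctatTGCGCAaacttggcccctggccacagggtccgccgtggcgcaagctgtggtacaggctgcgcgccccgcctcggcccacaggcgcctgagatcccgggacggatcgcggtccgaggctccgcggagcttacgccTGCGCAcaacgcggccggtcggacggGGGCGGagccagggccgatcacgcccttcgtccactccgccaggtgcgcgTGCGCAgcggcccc
The RNF5 stretch had 3 CCAAT matches and 1 GC box match in 199 bases at 49.2% G and C, and the RNF149 stretch had 1 GC box match and 3 NRF1 core matches in 250 bases at 72.8%. Over the full windows of 35116 promoters, 34.6% held a CCAAT match, 45.0% a GC box match and 8.2% an NRF1 core match. The stretch before RNF5 lies between RNF5 and AGPAT1, which is read from the other strand and whose annotated start is 257 bases away. AGPAT1 was not among the listed genes. Letters of a heat shock element were searched as GAANNTTC (in 6.8% of all windows) and TTCNNGAA (7.7%), and neither occurred in the windows of RNF5, RNF24, RNF39 or RNF149. These matches describe the letters only.

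RNF5 (ENSG00000204308, chromosome 6) was depleted to a similar degree in each knockdown library. Its normalized abundance (the sources used here do not give the scale) was 1594.70 in the first, 1649.43 in the second and 1248.30 in the third control library. It was 95.40, 81.35 and 88.44 in knockdown libraries 1, 2 and 3, which is 6.37%, 5.43% and 5.91% of the control mean. The groups lay far apart, and the control libraries spread more (coefficient of variation 14.5%) than the knockdown libraries (7.95%), with control library 3 the lowest control. The control mean was 16.9-fold the knockdown mean.

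Differences were tested with limma on log2(value + 1), fitted to the 1290 listed genes that reached 1 in no fewer than 3 libraries. A Benjamini-Hochberg adjusted p under 0.05 was called a change. RNF5 fell by 4.06 on that log2 scale (SE 0.16, 95% interval -4.40 to -3.72, limma adjusted p = 1.34e-08). Because the authors had picked the table on these libraries, 97.7% of the genes tested passed, 42.0% as lower in the knockdown. The exact 2-sided permutation test gave p = 0.1 for RNF5, the smallest that 3 against 3 libraries can give. Of the genes tested, 1 fell further than RNF5 on this scale, the unnamed transcript ENSG00000289901, mentioned here after its values were seen. A larger fall by the ratio of means was seen for genes near 0 in the knockdown, such as HSPA6 (38.8-fold).

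What remained of RNF5 in the knockdown includes any reads of its processed pseudogene RNF5P1 that were counted for it. The annotated RNF5P1 is 540 nt long and matched positions 159 to 701 of the 1168 nt RNF5 transcript at 98.3% identity, with 9 edits. It covered 46.5% of that transcript, and 205 of its 1119 windows of 50 nt (18.3%) were identical in RNF5P1. The other windows were found in no other annotated gene. RNF5P1 had no row in the table, and the sources used here do not give the read length.

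**Figure D1:**
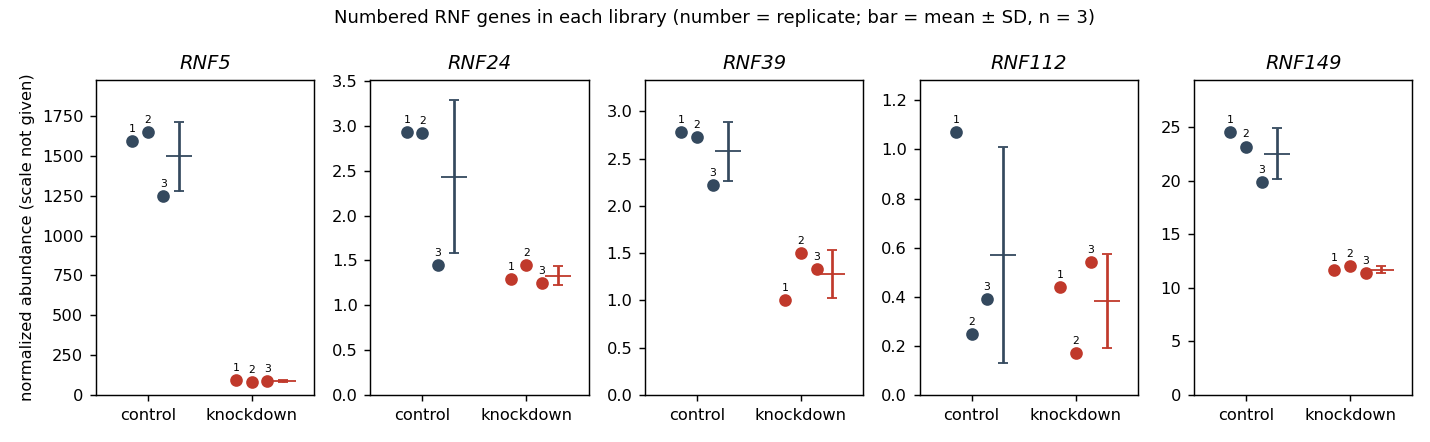
Normalized abundance (linear axis from 0, scale not given) of the 5 numbered RNF genes in each library. Points are libraries labelled by replicate number and bars are mean ± SD (n = 3); RNF5 falls from between 1248.30 and 1649.43 to between 81.35 and 95.40, RNF39 and RNF149 separate by group, RNF24 touches at 1.45 and RNF112 overlaps.

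RNF149 (ENSG00000163162, chromosome 2), a membrane-bound ligase of the protease-associated domain family, fell to about the same level in every knockdown library. Its abundance was 24.50, 23.17 and 19.86 with the control, in replicate order, and 11.68, 12.02 and 11.33 after knockdown. All knockdown values lay below all control values, and the knockdown libraries varied little, with a coefficient of variation of 2.96%. The mean went from 22.5 ± 2.39 to 11.7 ± 0.345 (SD, n = 3), or 51.9% of the control. On the log2(value + 1) scale it fell by 0.89 (SE 0.17, 95% interval -1.27 to -0.50, limma adjusted p = 0.000538), and the exact permutation test again gave p = 0.1. None of the 2409 windows of 50 nt in its longest coding transcript occurred in another annotated gene.

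RNF39 (ENSG00000204618) lies on chromosome 6 like RNF5, in the class I part of the major histocompatibility complex. Its values were low, at 2.78, 2.73 and 2.22 with the control, in replicate order, and at 1.0, 1.5 and 1.33 after knockdown. The groups did not overlap, and the mean fell from 2.58 ± 0.310 to 1.28 ± 0.254, or 49.6% of the control. The log2(value + 1) difference was -0.65 (SE 0.17, limma adjusted p = 0.00281), which understates the ratio of means (log2 -1.01) because a value of 1 is added to small numbers. Its transcript shared 19 of 2157 windows of 50 nt with PPP1R11.

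RNF24 (ENSG00000101236, chromosome 20), which encodes a small membrane protein with a ring finger, was lower in the knockdown by a margin that depended on single libraries. Control libraries 1 and 2 were at 2.93 and 2.92, while control library 3 was at 1.45, the same value as knockdown library 2. Knockdown libraries 1 and 3 were at 1.29 and 1.25. The mean was 2.43 ± 0.852 with the control and 1.33 ± 0.106 after knockdown, and the groups met at their edge. RNF24 fell by 0.53 on the log2(value + 1) scale (SE 0.20, 95% interval -0.97 to -0.08, limma adjusted p = 0.0244), but the exact permutation test gave p = 0.2. The limma call was lost without knockdown library 1 (log2 -0.51, adjusted p = 0.0595) or 3 (-0.50, 0.0689) and without control library 1 (-0.41, 0.0804) or 2 (-0.41, 0.0876). Of its 7404 windows of 50 nt, 8.67% occurred in other annotated genes.

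RNF112 (ENSG00000128482, chromosome 17), which encodes a ring finger protein with a GTPase domain known from the brain, was close to 0 in all libraries. It was at 1.07, 0.25 and 0.39 with the control, in replicate order, and at 0.44, 0.17 and 0.54 after knockdown. Of the knockdown values, 0.17 lay below all controls and the other two lay among them, and control library 1 alone stood above 1. RNF112 therefore did not enter the main test, and with no filter its log2(value + 1) difference was -0.16 (SE 0.19, limma adjusted p = 0.431), where 95.2% of all listed genes passed. The authors' deposited table nevertheless gives RNF112 a log2 fold change of -2.19 with an adjusted p of 0.0173, while the log2 ratio of its library means was -0.57. Of its windows of 50 nt, 9.52% were shared with the annotated gene AC004448.3.

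Of the 4 members tested, all 4 passed as lower in the knockdown, beside 42.0% of all genes tested, and each of the 4 had values of at least 1 in all 6 libraries. RNF5 is among the 4 as the depleted gene, so its fall was set by the experiment, and the call of RNF24 depended on single libraries. The median log2 fold change of the 4 members was -0.77, against -0.93 for all genes that passed as lower and 0.73 for all genes tested. In 3 of the 5 members (RNF5, RNF39 and RNF149) every knockdown value lay below every control value, which held for 45.5% of all listed genes. Apart from RNF5, the members that fell kept between 49.6% and 54.7% of the control mean, so their decreases were much smaller than that of RNF5. In the authors' deposited table their fold changes were 0.467 (RNF24), 0.435 (RNF39) and 0.437 (RNF149). Among the members and the listed genes of the fixed lists, no deposited fold change lay between 0.4843 (SELENOS) and 2.025 (RNF144A). The part of the authors' selection in this shared level was not tested. Control library 3 was the lowest control in 4 of the 5 members, and in 62.3% of all listed genes; its part in these results was not tested.

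The authors' deposited log2 fold changes were lower than the log2 ratios of the library means for all 5 genes. In the authors' deposited table they were -4.24 for RNF5, -1.10 for RNF24, -1.20 for RNF39 and -1.20 for RNF149. The ratio of means was higher than these by 0.15 for RNF5, 0.23 for RNF24, 0.19 for RNF39 and 0.25 for RNF149. The median difference over 431 genes whose group means both reached 5 was 0.17, so these 4 genes were near it. For RNF112 the difference was 1.62. As an alternative, all knockdown values were scaled down by this median of 0.17 on the log2 scale before 1 was added. All 4 tested members still passed. Such scaling enlarges any fall by design, so the larger falls of RNF24, RNF39 and RNF149 are no further evidence.

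**Figure D2:**
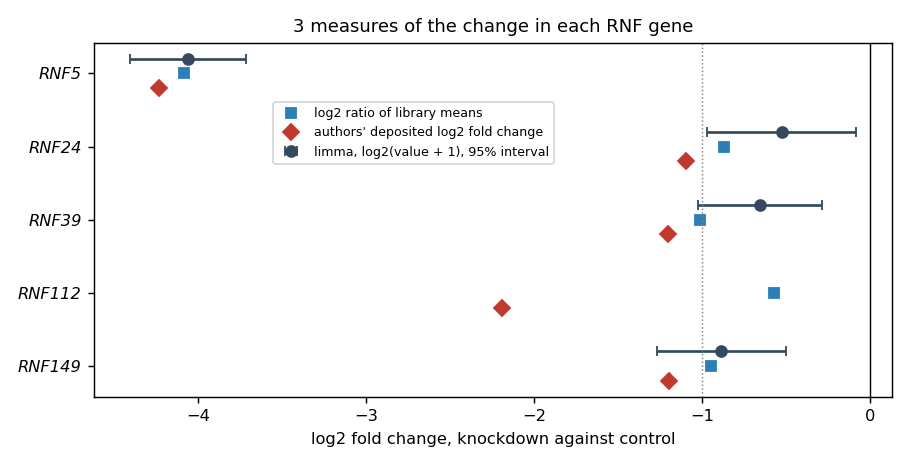
Log2 fold change of each numbered RNF gene, knockdown against control, by limma on log2(value + 1) with its 95% interval (circles, 4 tested genes), by the ratio of library means (squares) and in the authors' deposited table (diamonds). RNF112 shows the widest gap between the squares and diamonds, -0.57 against -2.19, and the dotted line marks a log2 value of -1.

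Of the genes of other ring ligase families, RNF144A rose and MARCHF5 fell. RNF144A (ENSG00000151692), a ligase that passes ubiquitin through a cysteine of its own, was at 2.24, 2.03 and 1.10 with the control and at 3.68, 4.38 and 4.11 after knockdown. It rose by 0.88 on the log2(value + 1) scale (SE 0.21, limma adjusted p = 0.00162), opposite to the numbered genes, and its groups did not overlap. TRIM17, of the tripartite motif family, was at 0.623 ± 0.237 with the control and 1.50 ± 0.321 after knockdown, and it entered the test through the knockdown group alone, so its limma call is not counted here. MARCHF5, a ligase of the outer mitochondrial membrane, went from 46.4 ± 11.9 to 21.5 ± 2.17 and fell by 1.05 on the log2(value + 1) scale (limma adjusted p = 0.000470). RNF213-AS1, an antisense transcript and not a ligase, was too low to test, at 0.397 ± 0.0603 with the control and 0.930 ± 0.197 after knockdown.

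For the steps before the ligase, 1 of 7 symbols for E1 enzymes and ubiquitin (14.3%) and 1 of 36 symbols for E2 enzymes (2.78%) had a row, beside 6.36% of protein-coding genes. The E1 gene was UBA7, the activating enzyme of the ubiquitin-like protein ISG15. It was at 7.46, 6.67 and 8.22 with the control and at 0.55, 1.62 and 1.51 after knockdown, and fell by 1.96 on the log2(value + 1) scale (SE 0.23, limma adjusted p = 2.22e-05). The lowest value came from knockdown library 1, and no knockdown value came near a control value. The E2 gene was UBE2C, which serves the anaphase-promoting complex. It fell to 138.91, 138.00 and 138.31 in the knockdown libraries, or 36.7% of the control.

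Substrate adaptors of cullin ligases were listed in 6 rows, 5 of them as lower by the authors, and all 4 that could be tested fell. Among all listed genes the authors gave 50.8% as lower, and 42.0% of the genes tested passed as lower. KBTBD11, the row listed as higher, was too low to test, at 0.0833 ± 0.0551 with the control and 0.283 ± 0.0551 after knockdown, without overlap. KBTBD13, also too low, was listed at 0 in all knockdown libraries. FBXO30 fell from 8.97 ± 1.70 to 3.81 ± 0.221, FBXO48 from 6.23 ± 1.29 to 2.71 ± 0.128 and FBXO39 from 3.08 ± 1.17 to 0.917 ± 0.300, all F-box proteins that bring substrates to cullin 1 ligases (limma adjusted p = 0.000447, 0.000768 and 0.000659). KLHL15, an adaptor of cullin 3, fell from 4.78 ± 1.20 to 1.85 ± 0.220 (limma adjusted p = 0.000674). Of the deubiquitinases, which remove ubiquitin, USP43 was at 0.383 ± 0.104 with the control and 1.49 ± 0.168 after knockdown. It entered the test through the knockdown group alone, so its limma call is not counted here. USP50 was too low to test, at 1.18 ± 0.271 and 0.403 ± 0.253. The authors chose all these rows on the same libraries, so the directions are not independent evidence.

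**Figure D3:**
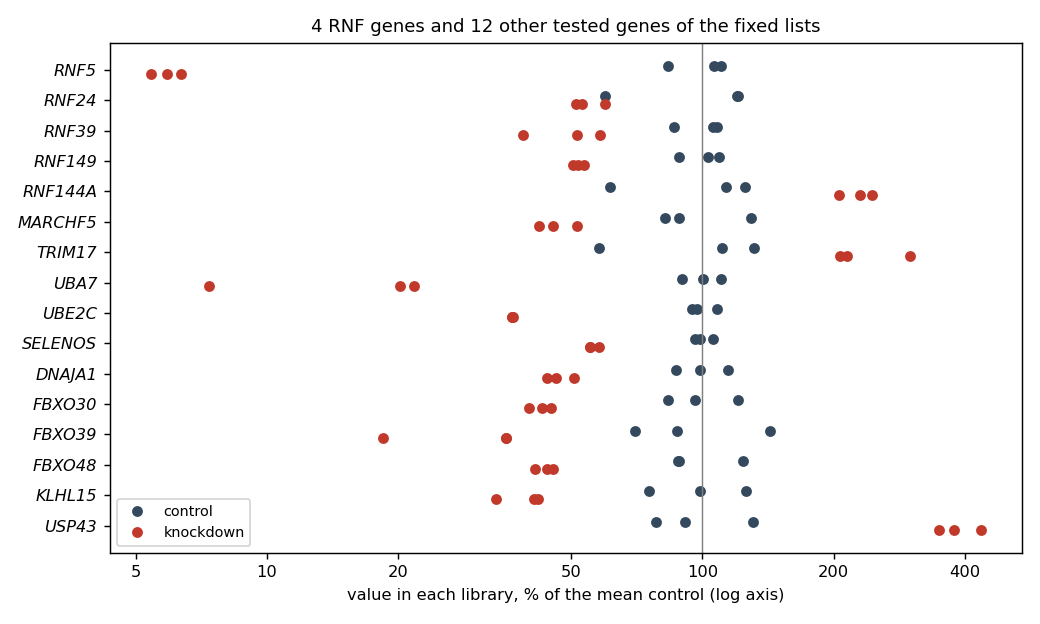
Value in each library as a percentage of the gene's mean control (log axis) for the 4 tested RNF genes and 12 other tested genes of the lists, control libraries in grey-blue and knockdown libraries in red. RNF5 lies between 5.43% and 6.37% in the knockdown, RNF24, RNF39 and RNF149 between 38.8% and 59.6%, and RNF144A, TRIM17 and USP43 above their controls; TRIM17 and USP43 entered the test through the knockdown group alone.

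Genes that work with RNF5 at the endoplasmic reticulum were described next. Of 52 symbols for this degradation pathway, older symbols included, RNF5 and SELENOS had rows (3.85% of symbols, beside 6.36% of protein-coding genes). RNF5 is the depleted gene, so its row was set by the experiment. Some symbols name the same gene, so these shares are not of like units. SELENOS, a membrane selenoprotein that binds the ATPase VCP, was at 342.69, 320.26 and 311.72 with the control and at 187.99, 178.98 and 179.00 after knockdown. Its groups did not overlap, and it kept 56.0% of the control mean (log2 fold change -0.83, SE 0.14, limma adjusted p = 0.000210). Of 16 symbols for reported RNF5 substrates and partners, older symbols included, DNAJA1 alone was listed (6.25% of symbols, not of genes). The study's title names DNAJA1 with RNF5, and the list was chosen with earlier results of these data known. The place of DNAJA1 in both is therefore no independent evidence. DNAJA1 was at 36.04, 41.44 and 37.82 in the knockdown libraries, which is 44.0%, 50.6% and 46.2% of its control mean beside 38.8% to 59.6% over the knockdown libraries of RNF24, RNF39 and RNF149. Of a fixed list of 12 genes near RNF5 on chromosome 6, TNXB alone was listed (8.33%, beside 6.36% of protein-coding genes). The list does not hold every gene of the region. TNXB, which encodes the matrix protein tenascin X, fell from 10.6 ± 1.97 to 4.35 ± 1.25 (limma adjusted p = 0.000544).

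The listed genes with the profile nearest to RNF5 were sought among 532 other named genes whose mean reached 5. Likeness was the root mean square difference, over the 6 libraries, of log2(value + 1) after subtraction of the control mean. HSPA6 was the nearest at 0.12, followed by SPARC at 0.410, HSPH1 at 0.635, HSPB1 at 0.799 and HSPA1B at 0.952, against 2.12 for DNAJA1 and 2.25 for RNF149. HSPA6 and RNF5 both had their lowest control value in library 3 (22.34 for HSPA6), as did 62.3% of all listed genes. In the knockdown libraries HSPA6 was at 0.81, 0.83 and 0.50. HSPB1 differed in having its lowest control in library 1 (1218.97). HSPA1B is nearly identical to HSPA1A, so its level is uncertain. The measure uses the knockdown contrast itself and depends on the added 1. HSPA6 and SPARC were under 1 in every knockdown library and reached the required mean only through the control, and by the ratio of means they fell further than RNF5 (38.8-fold and 126.5-fold against 16.9-fold). With 0.1 added in place of 1, a check chosen after seeing the data, the nearest were HSPH1 (0.606), HSPA6 (0.765), IFIT3 (0.780), HSPB1 (0.804) and HSPA1B (0.947), and SPARC ranked 23 (1.70).

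**Figure D4:**
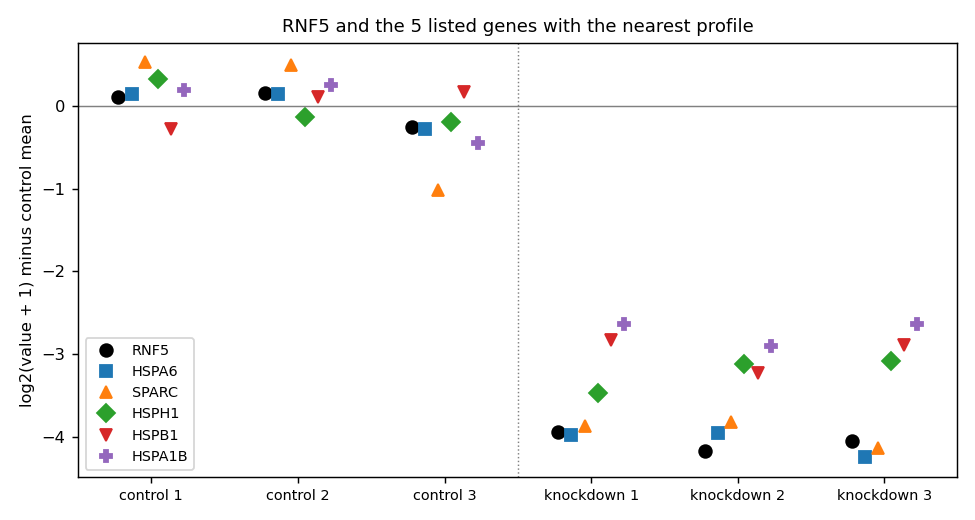
Log2(value + 1) minus the control mean in each of the 6 libraries for RNF5 (black circles) and the 5 nearest genes, offset sideways so that points can be seen. On this scale HSPA6 lies closest to RNF5 (root mean square difference 0.12) and HSPA1B is the farthest of the 5 (0.952); the places of HSPA6 and SPARC depend on the added 1, since by the ratio of means they fell 38.8-fold and 126.5-fold against 16.9-fold for RNF5.

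The calls of the smaller members were compared under all settings. RNF149 lay between -1.04 and -0.83 (log2) and RNF39 between -0.97 and -0.56 over the alternatives that could test them, and both passed in each. RNF24 lay between -0.76 and -0.41 and missed the threshold without either of 2 knockdown libraries or either of 2 control libraries, as given above.

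**Figure D5:**
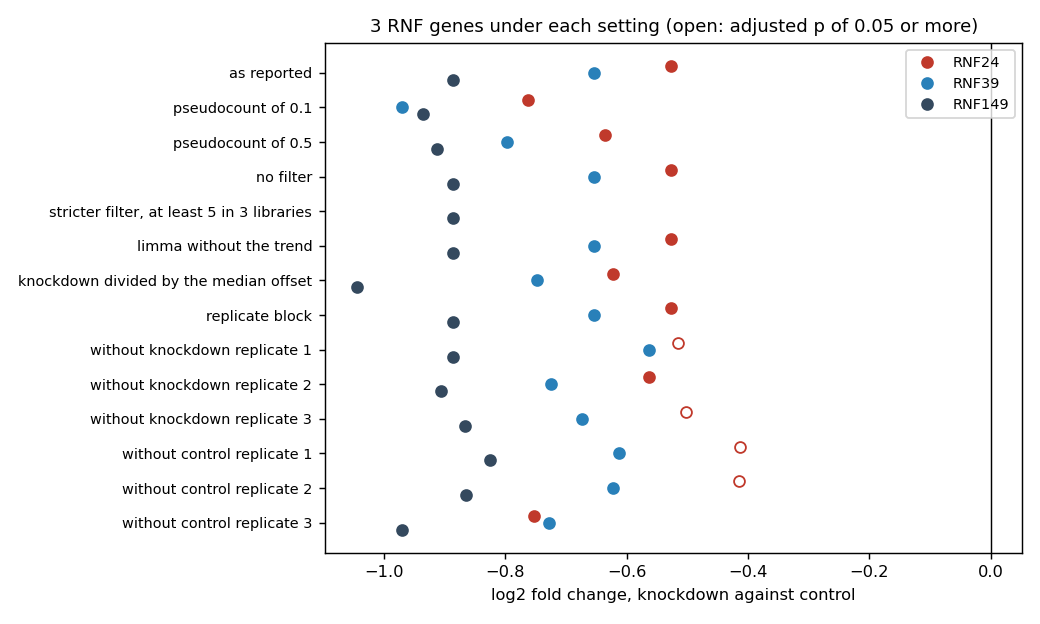
Log2 fold change of RNF24 (red), RNF39 (blue) and RNF149 (grey-blue) as reported and under each alternative setting, with open circles where the limma adjusted p was 0.05 or more. The open circles are all RNF24, and every point lies below 0; the stricter filter left only RNF149 of these to test.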

How the data were processed

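Messenger RNA abundance was compared between 3 RNF5 knockdown and 3 control libraries of LP-1 cells. The authors deposited 1 table of 1877 genes, with a normalized signal per gene and library (2 decimals on a scale the sources used here do not give) and group means. The fold ratio, its log2 value, the p-value and the adjusted p-value deposited by the authors compare knockdown with control, per the file headers. Bowtie 0.12.2 and build hg19 are named, without a step, in the submitters' processing notes. Only 4.19% of the library values were whole, so they are not counts and the depth is unknown. The signal deposited by the authors was tested on log2(value + 1) with limma 3.58.1 (R 4.3.3), using its mean-variance trend, a design of group only and Benjamini-Hochberg adjustment over the 1290 genes that reached 1 in no fewer than 3 libraries; 587 were left out. The fit was also run on simulated data in which most genes did not change. In the data here 97.7% of the genes tested passed, so that run does not bear on the calls. Alternatives changed the pseudocount, the filter, the trend, the scale and the libraries used, and added the replicate number as a block. Transcripts and gene names for windows of 50 nt came from GENCODE release 29. The members and lists were chosen with earlier results of these data known. All rows named RNF with digits were described, together with DNAJA1, the 5 nearest profiles and the listed members of fixed lists, at most 6 of each.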

Additional observations from a re-analysis of the deposited data

How the results depend on the processing

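RNF5 kept its direction and passed under all 13 alternatives, at log2 fold changes of -4.23 to -3.98 (limma adjusted p from 5.13e-64 to 4.04e-06). The smallest of these p-values came from the replicate block. The SE of RNF5 was larger there than in the main fit (0.228 against 0.157), so that p-value does not mark a more precise result. It lay between -4.19 and -3.98 when 1 library was left out. All 4 tested members passed with both other pseudocounts, without the trend, with rescaled knockdown values and with the replicate block; leaving out 1 library gave 3 or 4 of 4. The stricter filter, at least 5 in 3 libraries, tested 2 members and called 2, and called 654 of 660 genes in place of 1260, since fewer genes were tested. With no filter 1787 of 1877 genes passed, and with 1 library left out between 1076 and 1161. Deviations from the group means correlated at -0.16, -0.07 and -0.08 for same-numbered libraries, and at -0.03 to 0.11 for differently numbered ones. Such deviations cancel within each group, which ties these correlations together, so they cannot decide whether the libraries were paired. With the replicate block RNF5 was at -4.06 and 1272 genes passed. With 3 libraries a group, precision is limited, and for values near 1, as in RNF24, RNF39 and RNF112, the added 1 sets part of the fold change.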

Other observations

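RNF112 was among the genes whose deposited fold change departed most from the library values. Of 1821 listed genes with a finite ratio of means, 22 (1.21%) had a difference between that ratio and the authors' deposited log2 fold change at least as large as the 1.62 of RNF112. By deposited value RNF5 ranked 13 of 1877 in the mean control and 69 of 1877 in the mean knockdown. These ranks set different genes side by side on a scale for which the sources used here state no correction for gene length, so they are no order of transcript abundance.

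The unnamed transcript ENSG00000289901 fell further than RNF5 on the log2(value + 1) scale and was chosen for mention after its values were seen. It was listed at 1199.37, 1604.73 and 833.15 in the control libraries. In the knockdown it was listed at 0 in libraries 1 and 3 and at 43.01 in library 2, where RNF5 varied little. Its log2(value + 1) difference was -8.37 (SE 1.08), a size set in part by the 1 added to values of 0. The authors' deposited log2 fold change was -6.43. The transcript met the filter only through the control group, so its limma call is not counted here. The table gives this transcript no name, its position is not used here, and any relation to RNF5 was not tested.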
